A study of Mus musculus with 4 samples.

Results

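The genes described here are the nuclear-encoded subunits of the mitochondrial respiratory chain and ATP synthase. They were taken by symbol from the deposited count table: every gene outside the mitochondrial chromosome whose symbol begins with Ndufa, Ndufb, Ndufc, Ndufs or Ndufv and a number, with Uqcr, with Cox4 to Cox8 or with Atp5, together with *Sdha*, *Sdhb*, *Sdhc*, *Sdhd* and *Cyc1*, and without the copies marked -ps. This gave 91 of the 50559 genes in the table: 42 of complex I, 4 of complex II, 9 of complex III, 19 of complex IV and 17 of complex V. Of these, 86 had at least 10 counts on average over the libraries and were tested, and 74 averaged 500 or more. The 5 that did not pass were *Ndufa11b*, *Cox6a2*, *Cox6c2*, *Cox8b* and *Cox8c*.

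The study examined how YTHDF2, a cytoplasmic reader of N6-methyladenosine (m6A) on RNA, restrains the 2-cell-like (2C) state of mouse embryonic stem cells (ESCs). The cells were E14 ESCs, which per the methods of the study carried a tdTomato reporter under the MERVL promoter, and they were grown on gelatin with serum replacement and leukemia inhibitory factor. All 4 groups carried a lentiviral hairpin and were puromycin-selected, stably infected lines rather than edited clones. The control library (shScram+EV) carried a scrambled hairpin and an empty vector, and the knockdown library (shYthdf2+EV) paired a hairpin against *Ythdf2* with that vector. The wild-type library (shYthdf2+DF2WT) and the mutant library (shYthdf2+DF2Mut) had the same *Ythdf2* hairpin with a construct for intact YTHDF2 or for YTHDF2 unable to bind m6A. Where 4 values stand in a row, they follow the order control, knockdown, wild type, mutant. Each group had 1 poly(A)+ RNA-seq library, so no difference below has a replicate check, no p-value was computed, and every interval covers counting error only.

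Oxidative phosphorylation passes electrons from NADH through complex I, or from succinate through complex II, to coenzyme Q, on to complex III, cytochrome c and complex IV, where oxygen is reduced. Complexes I, III and IV pump protons across the inner membrane, and complex V, the ATP synthase, uses the gradient to make ATP. Each complex but the second also contains subunits encoded by mitochondrial DNA, so its assembly draws on both genomes. Pluripotent cells keep these complexes although much of their ATP comes from glycolysis.

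Total counts were between 31533129 and 35742335 reads per library. *Ythdf2* itself had 2806, 662, 7661 and 6925 counts, low in the knockdown library and above the control with either construct. Summed markers of ESCs were high in every library, between 5193 and 5734 CPM (counts scaled to the size of the library). The sum was 45.5, 28.9, 38.4 and 30.0 CPM for 8 fibroblast feeder markers and 84.3, 109, 93.5 and 107 CPM for 8 primitive endoderm markers. It was 145, 102, 139 and 106 CPM for 8 trophectoderm markers and 195, 541, 232 and 527 CPM for 8 2C markers. These sums moved with the groups, that of the 2C markers most, and their part in the values below was not tested. In bulk RNA, fewer cells of a type and less RNA per cell cannot be told apart.

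The respiratory chain genes took a small and fairly even share of each library. They held 0.871%, 0.949%, 1.01% and 0.826% of all counts, with Wilson 95% intervals of less than 0.01 percentage points to either side. The share was thus highest with wild-type YTHDF2 and lowest with the mutant. Complex V alone made up 0.454%, 0.463%, 0.497% and 0.428% of counts. Complex IV had the widest range as a fold, from 0.102% in the control to 0.135% on knockdown and 0.140% with the wild type, and back to 0.0953% with the mutant.

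Levels between genes are given as RPKM, reads scaled by exon length and by the size of the library, as the mean of the 4 libraries. The catalytic subunits of ATP synthase were at the top. *Atp5b*, the F1 beta subunit that holds the catalytic sites, had a mean of 1040 RPKM, and *Atp5a1*, the F1 alpha subunit, 485 RPKM. In single libraries *Atp5b* was at 1043, 1040, 1100 and 975 RPKM. Complex V ranged down to *Atp5j*, coupling factor 6, at 19.3 RPKM. That level rests on a summed exon length of 4137 bases, with a coding length of 324. At a like mean count, 2628 against 2649.5, *Atp5j2* with 428 bases was at 185 RPKM. The highest of complex IV was *Cox4i1*, an accessory subunit in contact with the catalytic core, at 386 RPKM.

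The other complexes had lower tops. Complex III ran from *Uqcrq*, a small subunit, at 29.1 RPKM to *Uqcrc1*, the core 1 protein, at 172 RPKM. The summed exons of *Uqcrq* were 1525 bases, with a coding length of 246. The genes of complex I were lower as a group, with a median of 34.1 RPKM against 90.1, 81.4, 105 and 110 RPKM for complexes II, III, IV and V. The highest gene under a complex I symbol was *Ndufa4* at 179 RPKM, whose product is now known as a complex IV subunit despite its name, and the lowest was *Ndufs6b*, a copy of *Ndufs6*, at 1.07 RPKM. *Ndufs5* was at 5.66 RPKM, but the copy marked *Ndufs5-ps*, which was left out by its name, held 576, 1037, 844 and 582 reads against 92, 105, 98 and 86 for *Ndufs5*, so how the reads divide between this pair is uncertain.

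**Figure D1:**
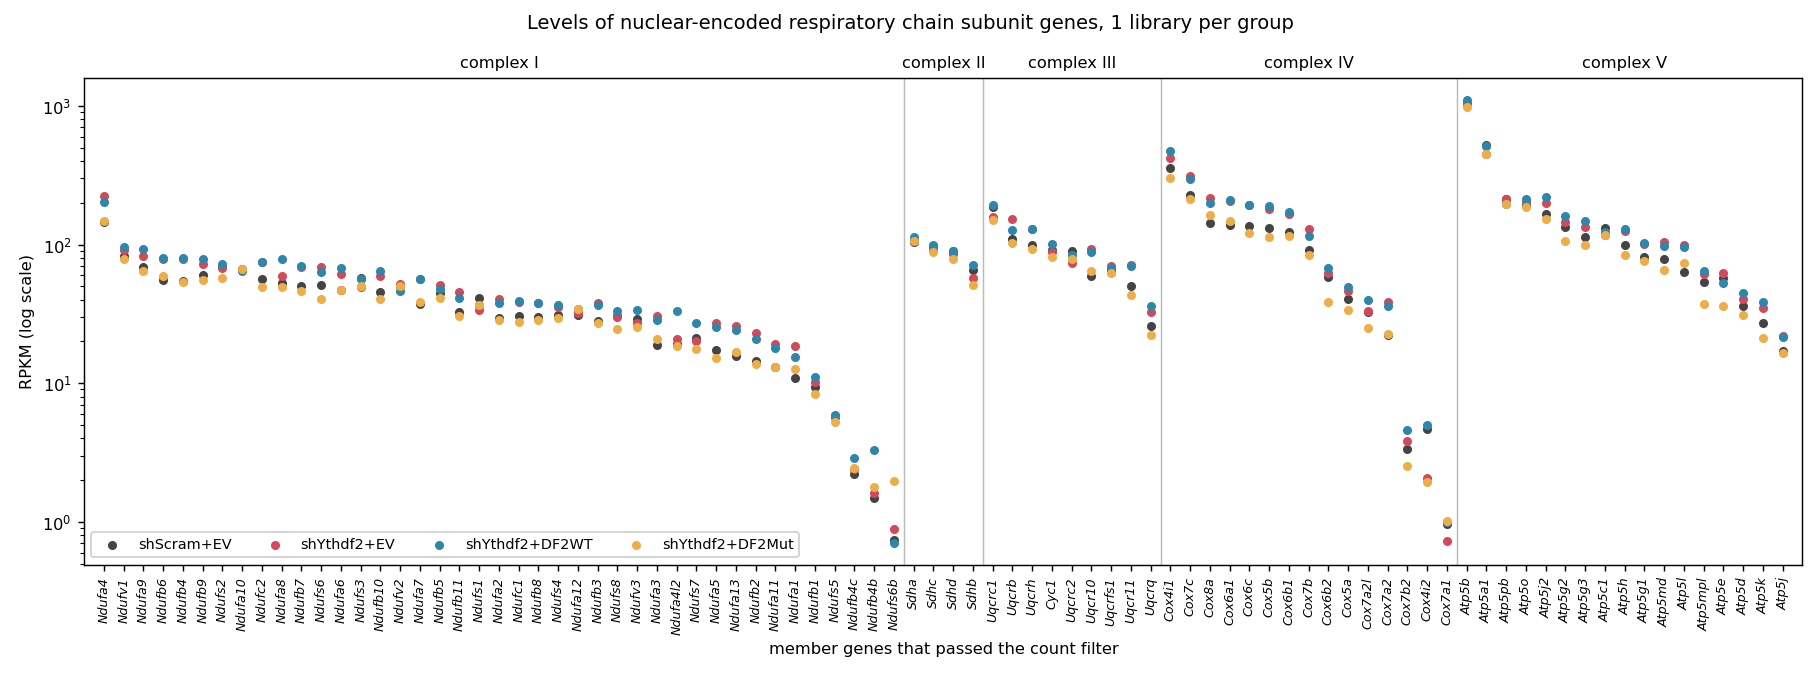
RPKM on a log scale (vertical axis) of the 86 genes that passed the count filter, grouped by complex and sorted by mean level, with 1 point for each of the 4 libraries. Most genes lie between 10 and 200 RPKM, *Atp5b* stands near 1040 RPKM, and the lowest is *Cox7a1* at 0.926 RPKM.

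Several subunits come as paralogs that differ between tissues, and here a single ubiquitous form predominated in most pairs. *Cox4i1* made up between 98.7% and 99.5% of the RPKM of the *Cox4i1* and *Cox4i2* pair. The heart and muscle form *Cox6a2* had 0 reads in each of the 4 libraries, which allows up to 3 reads in each, while *Cox6a1* was at 176 RPKM. *Cox8b*, another muscle form, had 0, 0, 0 and 2 reads, and *Cox8c*, known from testis, had 8, 10, 15 and 4 reads, so *Cox8a* made up at least 99.5% of that trio in each library. *Cox7a1*, a heart and muscle form, was at 0.926 RPKM.

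Most of the other families were more mixed. *Cox6b2*, known as a testis form, made up 32.2%, 27.3%, 28.3% and 25.0% of the *Cox6b* pair. *Cox7a2* made up 39.9%, 53.2%, 47.1% and 46.8% of its family, nearly all the rest being *Cox7a2l*, a factor of supercomplex assembly. In the *Cox7b* pair, *Cox7b2* made up only between 2.90% and 3.86% of the RPKM. *Ndufa4l2*, a paralog known to be induced by hypoxia, made up 11.6%, 8.55%, 14.1% and 11.2% of the pair with *Ndufa4*. The 3 genes for the same mature subunit c of the ATP synthase ring were all expressed, *Atp5g1* with 24.8% to 27.0%, *Atp5g2* with 37.7% to 40.8% and *Atp5g3* with 34.5% to 36.2% of their sum.

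Promoters were matched for 70 of the 91 genes, with 75 promoters from RefSeq on GRCm38.p6, each 250 bases before to 50 bases after a start site. The palindromic core of NRF1, a transcription factor known for activating respiratory chain genes, which reads GCGC, any 2 bases and GCGC again, was found in 25.3% of these promoters and in 6.23% of all 32851 promoters of the table, both strands searched. The ETS core CCGGAAG was found in 22.7% against 8.86%, and the YY1 core AAGATGG in 14.7% against 6.34%; no motif holds the letters of another, and the table also covers genes that ESCs do not express. The NRF1 letters are given for 1 gene of each complex, in capitals inside 30 bases of the gene's own strand, from chr6:24527697-24527726, chr9:50603909-50603938, chr9:108936643-108936672, chr5:115349101-115349130 and chr15:102671070-102671099. Uqcrc1 is on the plus strand and the other genes shown are on the minus strand.
Ndufa5 (complex I): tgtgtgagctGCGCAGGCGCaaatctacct
Sdhd (complex II): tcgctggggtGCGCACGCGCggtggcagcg
Uqcrc1 (complex III): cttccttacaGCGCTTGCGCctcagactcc
Cox6a1 (complex IV): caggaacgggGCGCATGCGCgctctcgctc
Atp5g2 (complex V): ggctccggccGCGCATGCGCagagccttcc

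Genes with and without the match were set side by side. On knockdown, the 18 tested genes with the NRF1 letters had a median log2 ratio of 0.21 and the 51 matched genes without them 0.33, and in the mutant against the wild-type construct the medians were -0.53 and -0.46. Of the genes printed above, *Cox6a1* had a positive ratio on knockdown and *Uqcrc1* a negative one. A match is a description of letters, and no match says only that these letters are not in this window.

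The first comparison asks what loss of YTHDF2 did to these transcripts, as shYthdf2+EV against shScram+EV. Ratios are log2 ratios of scaled counts, and a gene is counted as higher when its scaled count was at least 25% above, and as lower when it was at least 20% below, that of the other library. Of the 86 genes, 38 were higher and 2 lower, with a median of 0.25. Over all 18586 tested genes 24.2% were higher and 23.2% lower, with a median of 0.00. Among the 8542 well-expressed genes, which averaged 500 counts or more, the shares were 14.3% and 12.6%. With ratios centred on genes of like length, given at the end, fewer of the 86 were higher and their median was smaller. The shift was small: 0 genes reached 2-fold higher and 1 reached 2-fold lower, where 7.13% and 5.67% of all tested genes did. Of the 8542 well-expressed genes, 83 and 34 did. The log2 ratio of the summed counts of the respiratory chain genes was only 0.08, with the abundant catalytic subunits near 0 or below.

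The genes with the largest positive ratios were small accessory subunits of several complexes. *Cox7a2*, a subunit of complex IV, had 528, 1041, 895 and 552 counts. Its log2 ratio on knockdown was 0.80, with a 95% counting interval of 0.58 to 1.02. The libraries with the empty vector or wild-type YTHDF2 on top of the *Ythdf2* hairpin were therefore high, and the control and mutant libraries low.

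*Ndufa1*, a membrane subunit needed for complex I assembly, had 171, 330, 250 and 201 counts, with a ratio of 0.76 (0.38 to 1.16). *Ndufa13*, also known as GRIM-19, had 633, 1180, 1011 and 680 counts and a ratio of 0.71 (0.52 to 0.92). *Ndufa3* had 207, 385, 329 and 235 counts and a ratio of 0.71 (0.36 to 1.07). All 3 had the pattern of *Cox7a2*.

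*Ndufb2* was at 0.65, with 430, 767, 634 and 416 counts. *Ndufa5* was at 0.63, with 342, 603, 519 and 305 counts. *Atp5l*, subunit g of the membrane part of ATP synthase, was at 0.64 (0.52 to 0.77), with 1583, 2811, 2509 and 1871 counts. These again were high in the middle pair of libraries, and *Atp5l* did not come all the way back in shYthdf2+DF2Mut.

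Among the more abundant genes, *Uqcr10*, a small subunit of complex III, was at 59.8, 92.3, 88.8 and 64.5 RPKM, a ratio of 0.63 (0.47 to 0.78). *Ndufa4* was at 145, 223, 202 and 147 RPKM, a ratio of 0.62 (0.51 to 0.72). *Cox8a* was at 144, 217, 198 and 163 RPKM, a ratio of 0.60 (0.50 to 0.70). Their counting intervals are narrow, so the size of these ratios is not limited by depth.

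The genes with negative ratios were mostly different in kind. *Cox4i2*, the lung and hypoxia form of subunit IV, was the gene past 2-fold, with 107, 54, 119 and 45 counts and a ratio of -1.16 (-1.89 to -0.48). It was high in shScram+EV and shYthdf2+DF2WT and low in the other two libraries, at a few RPKM in each. *Cox7a1*, the other gene counted as lower, had only 14, 12, 15 and 15 counts, and its interval included 0.

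The other genes with negative ratios were 14 core subunits and the accessory *Ndufv3* and *Ndufa10*, and none of them passed the threshold. *Ndufs1*, the largest peripheral-arm subunit and a carrier of iron-sulfur clusters, had 4742, 4390, 4381 and 4280 counts, a ratio of -0.29 (-0.38 to -0.21). *Uqcrc2* and *Uqcrc1*, the core proteins of complex III, were at -0.28 (-0.36 to -0.20) and -0.25 (-0.31 to -0.19). *Atp5a1* was at -0.22 (-0.25 to -0.20), with 40374, 39241, 41232 and 34922 counts. In these genes shScram+EV was at or near the top of the 4 libraries rather than at the bottom.

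*Ndufs3*, which binds next to the quinone module, was at -0.22 (-0.36 to -0.08), and *Atp5c1*, the F1 gamma subunit that turns inside the catalytic head, was at -0.16 (-0.22 to -0.09). *Ndufv3*, an accessory subunit, was at -0.11 (-0.26 to 0.04).

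Complex II, which has no accessory subunits, had a negative median in this comparison. So had the core genes of complexes I, III and V, by the division given below, at -0.03, -0.14 and -0.01. *Sdha*, the flavoprotein that oxidises succinate, was at 105, 108, 114 and 106 RPKM. *Sdhb*, the iron-sulfur subunit, was at 65.8, 57.7, 71.1 and 51.2 RPKM. The membrane anchors *Sdhc* and *Sdhd* were at 95.5, 92.8, 99.7 and 88.1 RPKM and at 90.2, 85.7, 90.4 and 78.0 RPKM. Each of the 4 was highest in shYthdf2+DF2WT, and *Sdhb* varied most. On knockdown their ratios were 0.04 (-0.01 to 0.10), -0.19 (-0.31 to -0.07), -0.04 (-0.13 to 0.05) and -0.07 (-0.17 to 0.02), with a median of -0.06 and none past the threshold.

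By complex, the medians on knockdown were 0.26 for complex I, 0.34 for complex III, 0.43 for complex IV and 0.20 for complex V. In complex I 20 of 41 tested genes were higher and none lower. In complex IV 8 of 15 were higher and 2 lower, in complex III 5 of 9 were higher, and in complex V 5 of 17. Complexes III and V had positive medians while their summed counts were flat, at 0.00 (-0.03 to 0.04) and -0.01 (-0.03 to 0.00).

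The genes were also divided into core and accessory subunits. The 20 core genes were taken as those whose products hold the redox centres or catalytic parts, with the core proteins of complex III; this division follows textbook roles but was drawn after the values were seen. Their median on knockdown was -0.04, with 0 past the threshold in either direction. The 66 tested accessory genes had a median of 0.36, with 38 higher and 2 lower, so every gene counted above was accessory. Within complex III the 5 small subunits were all higher, between 0.34 and 0.63, while the 4 core genes lay between -0.28 and 0.09. Within complex I the medians were -0.03 for 7 core and 0.38 for 34 accessory genes, and within complex V -0.01 for 5 and 0.28 for 12.

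**Figure D2:**
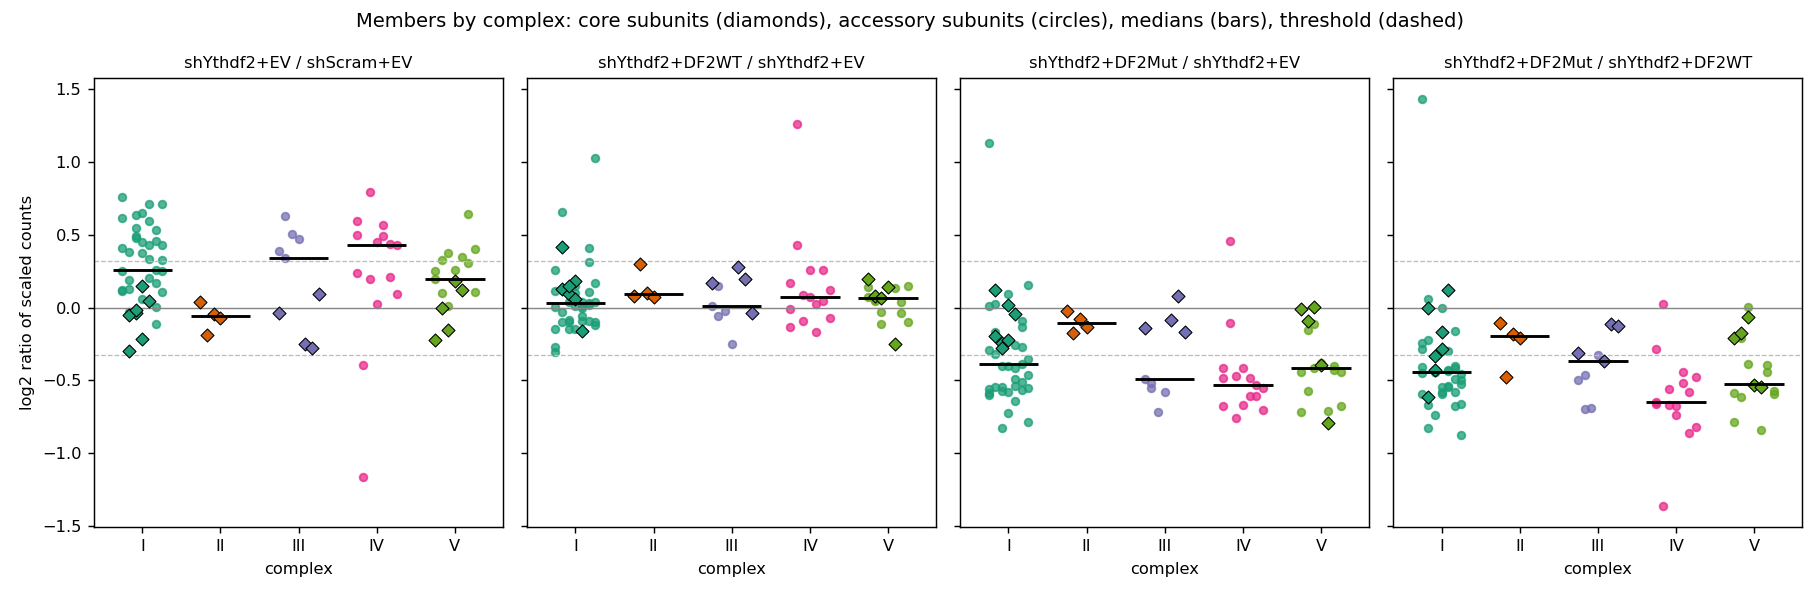
Log2 ratio of scaled counts (vertical axis) of each tested gene by complex (horizontal axis) in 4 comparisons of single libraries, with core subunits as diamonds, accessory subunits as circles, bars at the median of each complex and dashed lines at 25% higher and 20% lower. On knockdown no diamond passes a dashed line, and in both mutant comparisons complex IV has the lowest median, at -0.53 and -0.65.

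The second comparison asks whether wild-type YTHDF2 turned this back, as shYthdf2+DF2WT against shYthdf2+EV. It did not show a return: the median of the 86 genes was 0.05, with 6 higher and 0 lower, against 22.4% and 20.8% of all tested genes and 10.6% and 10.8% of well-expressed genes. Against shScram+EV, the wild-type library had a median of 0.35, with 48 genes higher and 0 lower, where 19.4% and 14.6% of all tested genes were. Among well-expressed genes these shares were 7.70% and 4.52%. Both comparisons include a library used above, so they are not separate evidence on it.

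Few genes stood out. *Cox4i2* was at 1.26 (0.59 to 1.98), the reverse of its knockdown ratio. *Ndufa4l2* had 695, 861, 1244 and 689 counts, a ratio of 0.66 (0.48 to 0.84) against shYthdf2+EV and 0.78 (0.59 to 0.98) against shScram+EV. It was high in the wild-type library and alike in the other three. *Ndufs7*, which carries the last iron-sulfur cluster before quinone, was at 0.42 (0.23 to 0.61), and *Ndufa8* at 0.41 (0.27 to 0.54).

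Among genes averaging 50 counts or more, the lowest ratios to shYthdf2+EV were *Ndufa1* at -0.27 (-0.62 to 0.07) and *Uqcrb* at -0.25 (-0.36 to -0.14). *Atp5e*, the F1 epsilon subunit, was at -0.25 (-0.45 to -0.05) and *Cox7b* at -0.17 (-0.25 to -0.08). None passed the threshold. Relative to shScram+EV, *Cox7a2*, *Ndufa13* and *Ndufa3* were still at 0.71, 0.62 and 0.61, and the lowest were *Ndufs1* at -0.17, *Atp5e* at -0.13, *Ndufv2* at -0.11 and *Atp5pb*, the b subunit of the stator, at -0.10. The core genes had a median of 0.11 against shYthdf2+EV and the accessory genes 0.03.

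The third comparison sets the mutant construct against the same knockdown library. Here most of the genes were lower in shYthdf2+DF2Mut: 52 of 86 were lower and 2 higher by the same threshold, with a median of -0.42, against 18.4% lower and 12.6% higher among all tested genes and 7.08% and 1.55% among well-expressed ones. The 2 that were higher were the low-count genes *Ndufs6b*, with 11, 15, 11 and 30 counts, and *Cox7a1*. By complex the medians were -0.38, -0.11, -0.49, -0.53 and -0.42 for I to V. With ratios centred on genes of like length, given at the end, fewer respiratory chain genes were lower and their median was smaller in size. The median of complex II then changed sign.

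*Ndufa5* was lowest at -0.83 (-1.12 to -0.54), followed by *Atp5e* at -0.80 (-1.03 to -0.57). *Atp5e* had 753, 931, 717 and 481 counts. *Ndufs6*, a zinc-binding subunit joined late in complex I assembly, had 918, 1404, 1182 and 731 counts, a ratio of -0.78 (-0.97 to -0.60). For both genes the mutant library was below all others.

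*Cox7a2* was at -0.76 (-0.97 to -0.54), which left it close to the control level. At the other end, among genes averaging 50 counts or more, *Ndufs1* was at 0.12 (0.03 to 0.21) and *Ndufa12* at 0.10 (-0.07 to 0.26). *Uqcrc2* followed at 0.08 (0.00 to 0.17) and *Ndufa10* at 0.02 (-0.07 to 0.11). The 20 core genes had a median of -0.11 with 2 past the threshold, *Atp5e* and *Atp5d*, and the 66 accessory genes a median of -0.49 with 50 lower. Knockdown and this comparison share the shYthdf2+EV library, which enters them with opposite sign.

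The fourth comparison, the mutant against the wild-type construct, asks what the m6A-binding mutation changed at similar *Ythdf2* levels, and it shares no library with the knockdown comparison. It had the widest difference: with the mutant 61 of 86 genes were lower and 1 higher, *Ndufs6b*, with a median of -0.46. Among all tested genes 28.3% were lower and 22.3% higher, and among well-expressed genes 17.7% and 14.7%. The medians of complexes I to V were -0.44, -0.19, -0.36, -0.65 and -0.52. With ratios centred on genes of like length, given at the end, fewer respiratory chain genes were lower and their median was smaller in size. The mutant library was the lowest of the 4 for 61 of the 86 genes, and the wild-type library the highest for 51; among other well-expressed genes these shares were 25.8% and 25.6%.

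*Cox4i2* was at -1.37 (-2.14 to -0.65). *Cox7b2*, a rare form of subunit VIIb, had 57, 75, 82 and 44 counts, a ratio of -0.86 (-1.69 to -0.09). *Atp5k*, subunit e of the ATP synthase dimer interface, had 276, 400, 401 and 219 counts, a ratio of -0.84 (-1.19 to -0.50). *Ndufa4l2* was at -0.82 (-1.02 to -0.63). Each was lower in the mutant than in the wild-type library. On knockdown *Atp5k* alone of these 4 was past the threshold on the higher side.

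A few genes lay at or slightly above 0. *Ndufv2*, a peripheral-arm subunit with an iron-sulfur cluster, was at 0.12 (0.01 to 0.23), *Ndufa10* at 0.06 (-0.04 to 0.15), *Atp5pb* at 0.00 (-0.06 to 0.06) and *Ndufa12* at 0.00 (-0.17 to 0.16). In complex II *Sdhb* was at -0.47 (-0.60 to -0.35), past the threshold, while *Sdha*, *Sdhc* and *Sdhd* were at -0.10, -0.18 and -0.21. The core genes had a median of -0.21 with 7 lower, and the accessory genes a median of -0.52 with 54 lower.

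Set against the control, the mutant library was slightly lower, with a median of -0.12. By the threshold 11 genes were lower and 1 higher, where 24.6% and 21% of all tested genes and 12.6% and 11.1% of well-expressed genes were. The lowest were *Cox4i2* at -1.27 (-2.06 to -0.54), *Atp5e* at -0.67 (-0.91 to -0.44), *Cox6b2* at -0.60 (-0.80 to -0.42) and *Atp5mpl*, a small membrane subunit of ATP synthase, at -0.52 (-0.70 to -0.34). Among genes averaging 50 counts or more, the highest were *Atp5l* at 0.21 (0.08 to 0.35) and *Ndufa1* at 0.21 (-0.22 to 0.64). *Cox8a* was at 0.18 (0.07 to 0.29) and *Ndufa12* at 0.16 (-0.02 to 0.33). The gene counted as higher was the low-count *Ndufs6b*, at 1.38 (-0.07 to 3.15).

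Transcript length moved with most of these values. Across the 86 genes, Spearman's rho of the log2 ratio with summed exon length was -0.44 on knockdown, 0.44 for the mutant against knockdown and 0.36 for the mutant against the wild type, but only 0.21 for the wild type against knockdown and -0.08 for the mutant against the control. Accessory subunits are small proteins, and the median exon length was 678.5 bases for the accessory genes against 1622.5 for the core genes.

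Short genes outside the nuclear-encoded subunits differed in the same direction, with mitochondrially encoded subunits and copies marked -ps not taken out. The 344 other well-expressed genes with less than 1000 bases of exon had medians of 0.22 on knockdown, 0.08 for the wild type against knockdown, -0.41 for the mutant against knockdown and -0.45 for the mutant against the wild type. Among them 37.8% were higher and 6.4% lower on knockdown, and 9.88% and 5.23% with the wild type against knockdown. In the mutant 63.1% were lower and 0.291% higher against knockdown, and 66.9% lower and 2.03% higher against the wild type. The mutant library was the lowest of the 4 for 73.5% of them and the wild-type library the highest for 57.3%, near the 70.9% and 59.3% of the respiratory chain genes.

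At like exon length and count level, larger shares of the respiratory chain genes passed the threshold in 3 of the 4 comparisons. The 38 well-expressed ones under 1000 bases had medians of 0.43 on knockdown, 0.02 for the wild type against knockdown, -0.54 for the mutant against knockdown and -0.55 for the mutant against the wild type. Of these, 71.1% were higher on knockdown, 2.63% were higher with the wild type, and 92.1% were lower in each mutant comparison. They were also shorter than the other short genes, with a median of 609.5 bases against 752.5.

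Of the 36 respiratory chain genes with 1000 or more bases, 19.4% were higher and 0% lower on knockdown, where 13.0% and 12.9% of 8124 other well-expressed genes of that length were. In the mutant 33.3% were lower against knockdown and 52.8% against the wild type, where 4.20% and 15.1% of the other genes were. Here too the median length differed, at 1544 bases against 4189.5. Genes of the same length class are thus not of the same length, and the part of length in these differences was not tested.

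**Figure D3:**
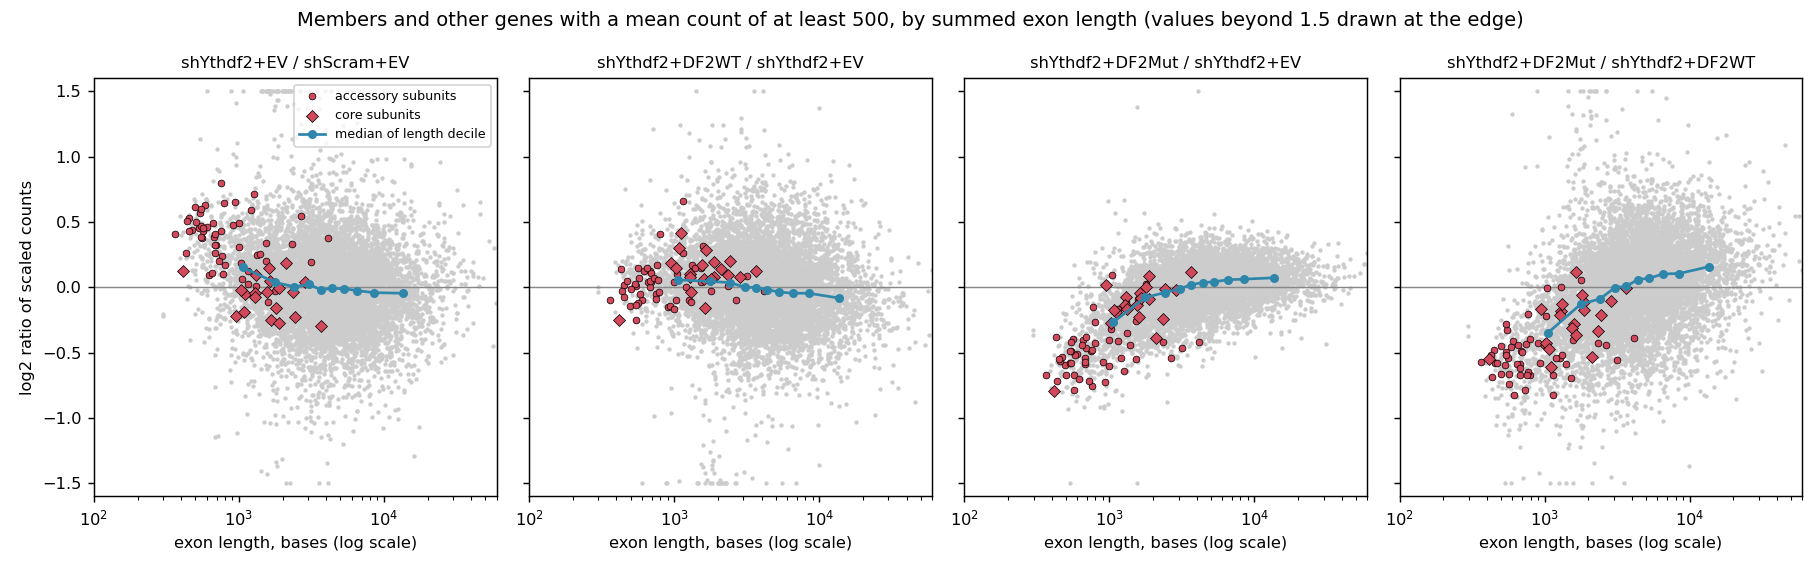
Log2 ratio of scaled counts (vertical axis) against summed exon length in bases (horizontal axis, log scale) for well-expressed genes, with respiratory chain genes in red (circles accessory, diamonds core), other genes in gray and the median of each length decile in blue. The shortest decile has a median of 0.15 on knockdown and -0.35 for the mutant against the wild-type construct, and most circles lie in it.

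Length and role are hard to part in these genes. Across the 80 tested genes with a known coding length, Spearman's rho of the log2 ratio with coding length was -0.65 on knockdown, 0.70 for the mutant against knockdown and 0.46 for the mutant against the wild type. These correlations are across genes of the same libraries, and genes are not independent replicates. At 1000 or more bases of exon, 18 core genes had a median of -0.04 on knockdown with 0 higher, and 18 accessory genes a median of 0.23 with 7 higher, at median exon lengths of 1646.5 and 1359 bases. In the mutant against knockdown these medians were -0.11 and -0.41, and in the mutant against the wild type -0.21 and -0.44. The accessory genes of this length still had shorter coding sequences, with a median of 432 bases against 934.5. The short core gene *Atp5e*, with 414 bases of exon, was near the accessory genes in both mutant comparisons, at -0.80 and -0.55, and at 0.12 on knockdown. *Ndufs3*, the other core gene under 1000 bases, with 949, was at 0.02, -0.17 and -0.22.

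The knockdown and mutant-against-wild-type ratios, which share no library, were related in opposite ways in these genes and overall. Across the 74 well-expressed respiratory chain genes Spearman's rho was -0.43 and Pearson's r -0.50, and across all 86 tested ones -0.38 and -0.14, while across all 8542 well-expressed genes they were 0.36 and 0.44. Among the respiratory chain genes, those with higher knockdown ratios thus tended to have lower ratios of the mutant to the wild type. Both ratios also ran with length in opposite directions, and the part of length in this relation was not tested.

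The other genes that serve the chain did not all follow. The 13 mitochondrially encoded subunits held 8.32%, 6.55%, 6.23% and 5.98% of counts. On knockdown 12 of the 13 had negative ratios, with a median of -0.23. By the threshold 4 were lower and 0 higher, where 23.2% and 24.2% of all tested genes were. The 13 ran from *ATP6* at -1.14 (-1.21 to -1.08) and *CYTB* at -0.97 (-0.98 to -0.96) to *ND1* at -0.04 and *COX3* at 0.25 (0.17 to 0.33). Against shScram+EV they remained low with the wild-type construct, with a median of -0.38, and with the mutant, at -0.61. Nuclear accessory genes and mitochondrial genes thus lay on opposite sides of the control in shYthdf2+EV and shYthdf2+DF2WT. Poly(A) selection and the short tails of mitochondrial RNA make the mitochondrial levels hard to compare with nuclear ones.

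The 78 mitochondrial ribosomal protein genes, which build the ribosome that makes those 13 proteins, had a median of 0.19 on knockdown. Of them 26 (33.3%) were higher and 0 lower. Among all tested genes 24.2% were higher and 23.2% lower, and among well-expressed genes 14.3% and 12.6%. *Mrps28* and *Mrpl54* were highest, both at 0.74, and *Mrps10* and *Mrps22* lowest, at -0.22 and -0.21. With the wild-type construct their median was -0.06 against knockdown, and with the mutant -0.25. The 91 tested cytosolic ribosomal protein genes had medians of 0.19 on knockdown (19 higher, 2 lower), 0.16 with the wild type and -0.46 with the mutant against knockdown, and -0.63 for the mutant against the wild type. *Rpl29* and *Rpl41* were at 0.61 and 0.55 on knockdown, and *Rpl3* and *Rps7* at -0.59 and -0.33.

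**Figure D4:**
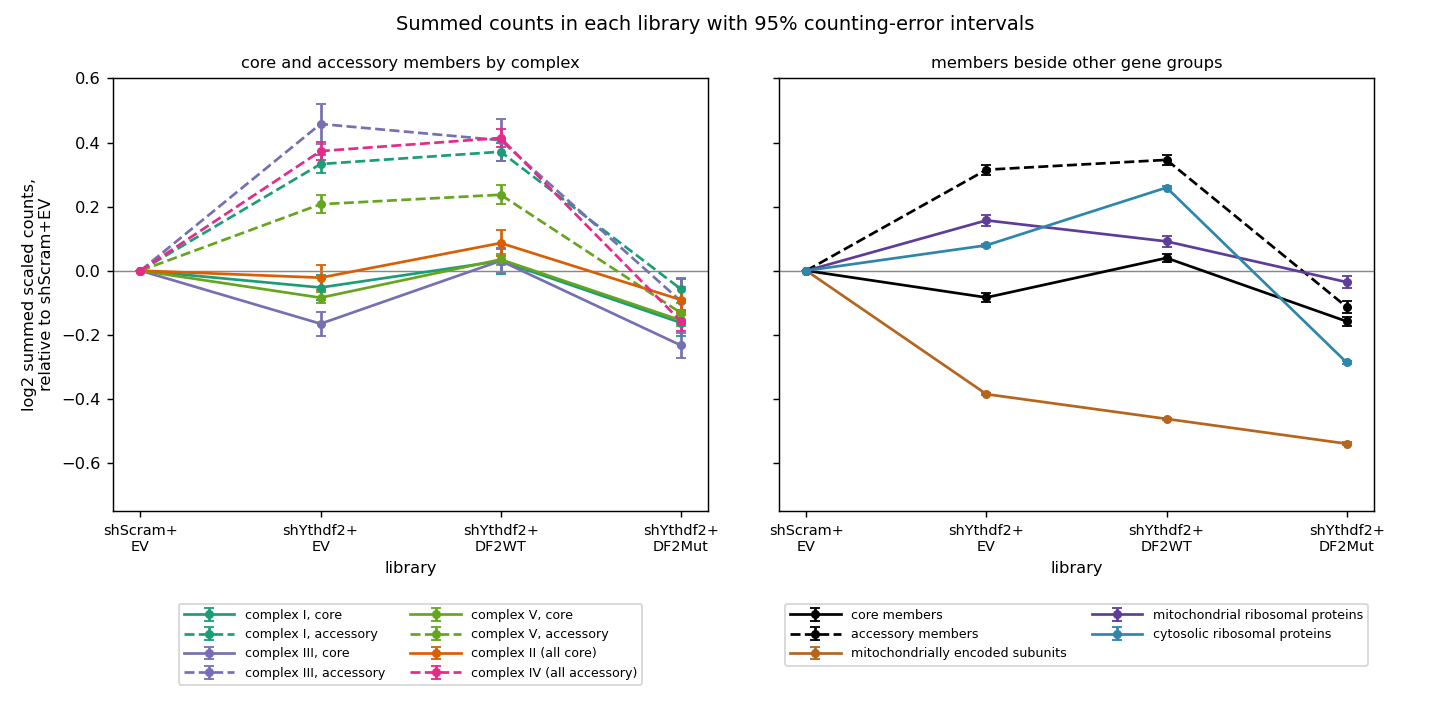
Log2 of summed scaled counts relative to shScram+EV (vertical axis) in the 4 libraries (horizontal axis), with 95% counting-error intervals; left, core (solid) and accessory (dashed) genes of each complex, right, all core and all accessory genes beside 3 other gene groups. Accessory genes are at 0.32 and 0.35 in shYthdf2+EV and shYthdf2+DF2WT and at -0.11 in shYthdf2+DF2Mut, core genes stay between -0.16 and 0.04, and mitochondrially encoded genes fall to -0.54.

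Among 48 tested assembly factors, which build the complexes without staying in them, the median on knockdown was 0.10. Of them 15 (31.25%) were higher and 4 (8.33%) lower, where 24.2% and 23.2% of all tested genes were. The complex III factors *Uqcc3* and *Uqcc2*, both short genes, were at 0.82 (0.51 to 1.13) and 0.79 (0.48 to 1.12). *Nubpl*, which delivers iron-sulfur clusters to complex I, had 717, 448, 632 and 467 counts, a ratio of -0.86 (-1.11 to -0.62), and *Ndufaf6* was at -0.42. The mutant against knockdown gave a median of -0.14.

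Transcriptional regulators and metabolic neighbours had medians between -0.14 and 0.09 on knockdown, where 24.2% of all tested genes were higher and 23.2% lower. Of 17 tested regulators 2 were higher and 2 lower on knockdown, with a median of 0.09. *Ppargc1b*, a coactivator of mitochondrial genes, had 434, 222, 314 and 257 counts and a ratio of -1.15 (-1.49 to -0.81), and *Tfb2m*, a mitochondrial transcription factor, was at -0.71 (-0.94 to -0.49). *Mterf1a* and *Esrra* were at 0.55 and 0.37.

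The 13 tricarboxylic acid cycle enzymes had a median of -0.14 on knockdown, with 1 higher and 1 lower. *Mdh2*, malate dehydrogenase, was at 0.76 (0.70 to 0.83), with 5252, 10124, 7064 and 8351 counts, and *Dlst* was at -0.48 (-0.56 to -0.40). *Ogdh* was at 0.09 and *Sucla2* at -0.29. The 19 genes of electron carriers and coenzyme Q synthesis had medians of 0.21 for the wild type against knockdown and -0.28 for the mutant against the wild type. On knockdown their median was -0.13, with 1 higher and 4 lower. *Ndufab1*, the acyl carrier protein that is also a small subunit of complex I but has a symbol outside the list, was at 0.48 (0.33 to 0.63), *Cycs*, cytochrome c, at 0.18 (0.09 to 0.27), and *Coq10a* and *Coq8b* at -0.62 and -0.41.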

How the data were processed

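Poly(A)+ RNA of 4 mouse ESC libraries was sequenced in pairs, and the authors deposited read counts per gene. Per the file headers they used featureCounts 2.0.3 with RefSeq gene models of mm39 from UCSC, unstranded, with reads rather than pairs counted and multi-mapping reads left out, so paralogs, processed copies and antisense overlaps are uncertain. The submitters' processing notes name fastp 0.19.4, HISAT2 2.2.1 and DESeq2 1.40.2, and another build, mm10. Counts were scaled with TMM factors (edgeR 4.0.16, R 4.3.3), between 0.974 and 1.02. A prior count of 0.5 was added before log2 ratios, which were taken for genes that averaged 10 counts or more over the libraries. RPKM used the deposited exon lengths. Counting intervals (95%) were Clopper-Pearson on read pairs, taken as reads divided by 2; amplified reads are not independent molecules. Coding length and GC content came from GENCODE annotation of GRCm38. The labels give 1 library per group, although the methods of the study describe replicates. Ratios were tested on simulated data. The members, lists, fold threshold and naming rule were chosen with earlier results of these data known. Named were the extremes of each comparison among genes that averaged 50 counts or more (10 per direction on knockdown, 4 otherwise), level extremes, paralog families and 2 genes per direction of each pathway list; genes outside this rule, such as *Ndufs6b*, *Ndufs5* and *Cox7a1*, were chosen after their values were seen. Alternatives were other scalings, prior counts, filters, folds, and centring on length or GC content.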

Additional observations from a re-analysis of the deposited data

How the results depend on the processing

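Of 348 alternative values for 36 results, 258 stayed within the counting error of a median or within 1.5 times a count, 86 moved further and 4 medians past their counting error changed sign. Another 10 medians, all of the wild type against knockdown and near 0, changed sign within that error, under scalings as well as centring. Other scalings (DESeq2 size factors, total counts, totals without mitochondrial genes and upper quartile), GC centring and the larger prior count moved no median beyond its counting error. Centring on length moved most of them, in 3 ways, of which the last 2 were chosen after seeing the data. No paired analysis was possible because each group had 1 library, and for the same reason no library could be left out. Depth limits only genes such as *Ndufs6b* and *Cox7a1*.

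With ratios centred on exon length deciles of all tested genes, 23 genes were higher on knockdown, with a median of 0.30 for complex IV, and 1 was lower with the wild-type construct against knockdown. For the mutant against knockdown the median over all genes was -0.19, with 19 lower, and complexes I to V were at -0.14, 0.014, -0.20, -0.26 and -0.16, so complex II changed sign. For the mutant against the wild type the median was -0.17, with 2 higher and 19 lower, and the complexes were at -0.14, -0.023, -0.11, -0.31 and -0.19. Shares of all tested genes past the threshold were not computed on centred ratios, here or below. Without centring, 24.2% of them were higher on knockdown, and 18.4% and 28.3% lower in the mutant against knockdown and against the wild type.

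With coding length deciles of all tested genes, 16 genes were higher on knockdown and complexes II to V were at -0.22, 0.17, 0.26 and 0.064. For the mutant against knockdown the median was -0.22, with 24 lower, and complexes II to V were at 0.018, -0.26, -0.30 and -0.19. For the mutant against the wild type it was -0.25, with 0 higher and 24 lower, and complexes I to V were at -0.23, -0.035, -0.22, -0.38 and -0.25.

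With exon length deciles of genes averaging 500 counts or more, the knockdown median was 0.11, with 21 higher and 4 lower, and complexes II and IV were at -0.21 and 0.28. With the wild type against knockdown 2 genes were lower. For the mutant against knockdown the median was -0.18, with 4 higher and 22 lower, and complexes I to V were at -0.15, 0.11, -0.22, -0.28 and -0.17. For the mutant against the wild type it was -0.17, with 4 higher and 19 lower, and the complexes were at -0.15, 0.017, -0.15, -0.31 and -0.20. Why complex II changed sign was not tested.

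At 1.5-fold, 11 genes were higher and 1 lower on knockdown, 3 higher with the wild type, 1 higher and 17 lower for the mutant against knockdown, and 24 lower for the mutant against the wild type. Of all 18586 tested genes, 2584 and 2380, 2266, 1164 and 1723, and 2875 passed this fold, in the same order. Of the 8542 well-expressed genes, 333 and 262, 214, 4 and 106, and 466 did. At 2-fold the respiratory chain numbers were 0 and 1, 2, 1 and 0, and 1. All tested genes gave 1326 and 1054, 958, 477 and 656, and 1207, and well-expressed genes 83 and 34, 23, 2 and 2, and 43. Among respiratory chain genes averaging 500 counts or more, 0 were lower on knockdown, 3 higher with the wild type, and 0 higher in either mutant comparison. Where the interval also had to exclude 0, 1 gene was lower on knockdown and 0 were higher in either mutant comparison. A prior count of 5 left 1 lower on knockdown. For the wild type against knockdown, GC centring gave 3 higher and 2 lower, and upper-quartile scaling or a filter at an average of 1 count gave 1 lower. As summed counts, the ratios were 0.082 on knockdown, -0.22 for the mutant against knockdown and -0.31 for the mutant against the wild type. Without the counts of the mitochondrial chromosome, the genes held 0.952%, 1.02%, 1.08% and 0.881% of counts in the 4 libraries, the same order as with them.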
